A study of Mus musculus with 6 samples.

Results

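The genes described here are the 10 that encode the mouse MHC class II molecules and the proteins that load them with peptide, taken from the deposited gene table by their symbols, out of 26452 genes in all: H2-Aa, H2-Ab1, H2-Eb1, H2-Eb2, H2-DMa, H2-DMb1, H2-DMb2, H2-Oa, H2-Ob and Cd74. All 10 were found once in the table, and all 10 passed the filter on low values. They were followed in spleen RNA of 3 libraries from Was knockout mice (Was -/-, 129S6/SvEvTac-Wastm1Sbs/J) and 3 libraries from wild-type 129S6/SvEvTac mice. All mice were males aged 10 weeks, bought from one supplier and given no treatment that the labels name. Was encodes the Wiskott-Aldrich syndrome protein, which drives branching of actin filaments in blood cells. Libraries are named by genotype and animal number: KO451, KO452, KO457, WT453, WT454, WT455. The labels do not say whether a library is 1 mouse or a pool, so p-values measure only the spread between these libraries, which may be technical.

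An MHC class II molecule is a pair of an alpha and a beta chain that shows peptides from engulfed proteins to CD4+ T cells. The chains are assembled with the invariant chain, encoded by Cd74, which blocks the peptide groove and steers the complex to endosomes. There proteases trim the invariant chain to a short remnant, H2-DM exchanges that remnant for antigen peptides, and H2-O holds H2-DM in check. B cells, dendritic cells and some macrophages carry class II molecules, and in the spleen B cells are the most abundant of these. The transcription of the whole group is governed by the coactivator CIITA, which acts through factors bound to short promoter elements called the X box and the Y box.

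In the mouse genome 9 of the genes lie together on chromosome 17, from H2-Oa, which starts at 34092340, to H2-Eb2, which ends at 34341412 (GRCm38, GENCODE M21). The RefSeq promoter table (GRCm38.p6, C57BL/6J) held a window for 8 of the 9 genes of chromosome 17. The following stretches run from 160 to 21 bases before the start annotated by RefSeq. They cover where the X and Y boxes of class II genes are known to lie. They are shown for each gene with a window except H2-DMa. The stretches before its annotated starts held no X box or Y box match. The Y box match of H2-DMa, given below, lies 198 to 194 bases before a start and so outside the stretch. RefSeq and GENCODE starts differ for some genes. GENCODE starts H2-DMa at 34119541 and H2-DMb2 at 34143307, ahead of their stretches, and H2-DMb1 at 34153072, within its stretch. By GENCODE the matches of these genes therefore lie inside the gene. Capitals mark matches to an 11-letter X box pattern and to the Y box letters ATTGG, both searched on either strand, so that CCAAT before H2-Eb1 is a Y box match on the other strand.
H2-Eb1, chr17:34305707-34305846, plus strand: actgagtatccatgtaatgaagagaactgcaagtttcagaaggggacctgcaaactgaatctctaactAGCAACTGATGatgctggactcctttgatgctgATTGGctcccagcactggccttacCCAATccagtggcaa
H2-Eb2, chr17:34325515-34325654, plus strand: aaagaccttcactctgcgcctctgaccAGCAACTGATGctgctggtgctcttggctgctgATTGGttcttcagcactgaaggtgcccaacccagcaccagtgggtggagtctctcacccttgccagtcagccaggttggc
H2-DMb1, chr17:34153031-34153170, plus strand: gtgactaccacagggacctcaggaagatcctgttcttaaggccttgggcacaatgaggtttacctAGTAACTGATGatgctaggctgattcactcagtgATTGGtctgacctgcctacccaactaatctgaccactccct
H2-DMb2, chr17:34145089-34145228, plus strand: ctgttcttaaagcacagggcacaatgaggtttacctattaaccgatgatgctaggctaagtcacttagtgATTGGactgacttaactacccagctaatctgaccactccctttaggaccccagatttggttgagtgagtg
H2-Oa, chr17:34092219-34092358, plus strand: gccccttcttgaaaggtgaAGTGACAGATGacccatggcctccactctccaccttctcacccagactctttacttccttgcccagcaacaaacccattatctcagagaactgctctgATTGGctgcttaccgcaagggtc
H2-Ob, chr17:34238745-34238884, plus strand: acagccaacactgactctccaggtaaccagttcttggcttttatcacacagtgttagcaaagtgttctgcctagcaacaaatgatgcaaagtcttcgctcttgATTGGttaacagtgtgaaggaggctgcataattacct
H2-Aa, chr17:34287844-34287983, minus strand: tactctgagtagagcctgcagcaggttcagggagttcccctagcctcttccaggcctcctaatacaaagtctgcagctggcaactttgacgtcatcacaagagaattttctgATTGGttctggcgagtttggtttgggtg

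The X box pattern was found in the windows of 4 of the 8 genes, H2-Eb1, H2-Eb2, H2-DMb1 and H2-Oa, and in 0.968% of the 32851 promoter windows of the whole table. H2-Eb1 and H2-Eb2 carried the same X box letters, AGCAACTGATG. The Y box letters were found in the windows of all 8 genes, for H2-DMa only in the window of the second of its 2 annotated starts, and in 37.4% of all windows. In H2-Eb1 and H2-Eb2 22 bases separated the X box match from the Y box match that follows it, in H2-DMb1 23 bases, and in H2-Oa 87 bases. TGACG, a core of the X2 element that adjoins the X box, matched on both strands in overlapping positions before H2-Aa, in none of the other 7 genes, and in 20.8% of all windows. A match is a run of letters and not a measured binding site. The sequences are those of C57BL/6J, and those of the 129S6 mice were not examined.

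The libraries were checked before the genes were compared. Whole reads recovered from the values ranged from 30661759 in WT455 to 38402758 in WT454. The targeted gene Was had a log2 normalized count of 8.99, 8.67 and 8.68 in KO451, KO452 and KO457, against 12.02, 12.68 and 12.62 in WT453, WT454 and WT455, so each library matched its label. The markers of B cells (12 of 12), T cells (9 of 9) and red pulp macrophages (10 of 10) had reads in all 6 libraries. WT453 stood apart from the other wild-type libraries. Set against each list's mean over all 6 libraries, its red pulp macrophage markers stood at -1.69, its erythroid markers at -2.27 and its neutrophil markers at 2.24 (log2 scale). Among the 6 spleen stroma markers tested, Col1a1 had 2444 reads in WT453. It had 18 in WT454, 8 in WT455, and 21, 23 and 55 in KO451, KO452 and KO457. Every other gene of that list had at most 40 reads in any library, and the list's mean stood at -0.16 in WT453. Col1a1 was named after its values were seen, and the cause was not tested. Results on the class II genes are therefore given with and without WT453. The knockout libraries differed among themselves as well. Their erythroid markers stood at 2.58 in KO451, 0.63 in KO452 and 0.99 in KO457, and their neutrophil markers at -0.051, -0.69 and 1.55. Ranges with each single library left out are given near the end.

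Class II transcripts were abundant in every spleen. The 10 genes took 0.635% ± 0.304 (SD, n = 3) of all reads assigned to genes in knockout libraries and 0.984% ± 0.446 (SD, n = 3) in wild-type libraries. The share was 0.425% in KO451, 0.985% in KO452 and 0.497% in KO457, against 0.482% in WT453, 1.33% in WT454 and 1.14% in WT455. The groups overlapped, with KO452 near the 2 high wild-type libraries and WT453 near the 2 low knockout libraries. Cd74 alone held between 41.0% and 53.1% of these reads, the upper value in WT453. In spleen RNA, which mixes cell types, fewer cells of a type and less RNA per cell cannot be told apart.

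Per exon length, Cd74 stood far above the other 9 genes in every library. Levels per length are given as RPKM, reads scaled to the depth of the library and to the length of a gene's exons. That length joins all annotated exons of a gene, 3798 bases for H2-Aa, 2568 for H2-Ab1 and 1944 for H2-Eb1. The transcripts in use may be shorter, so the order of genes depends on this choice. Before scaling to length, H2-Aa exceeded H2-Ab1 in every library but WT453. Cd74 averaged 1657 ± 840 RPKM in knockout and 2699 ± 1045 RPKM in wild-type libraries (SD, n = 3 each). The 3 main chains followed close together, with means over the 6 libraries of 468 RPKM for H2-Ab1, 428 for H2-Aa and 421 for H2-Eb1. H2-DMb2 came next at 153 RPKM, followed by H2-Oa at 61.2, H2-DMb1 at 57.8, H2-DMa at 42.1, H2-Ob at 26.7 and H2-Eb2 at 16.9. The order of neighbours in this list held in 6 of 6 libraries for 7 of the 9 neighbouring pairs. H2-Aa exceeded H2-Eb1 in 4 of 6 libraries and H2-Oa exceeded H2-DMb1 in 5 of 6. Apart from Cd74 and H2-Ab1, the ranges of neighbours over the 6 libraries overlapped.

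**Figure D1:**
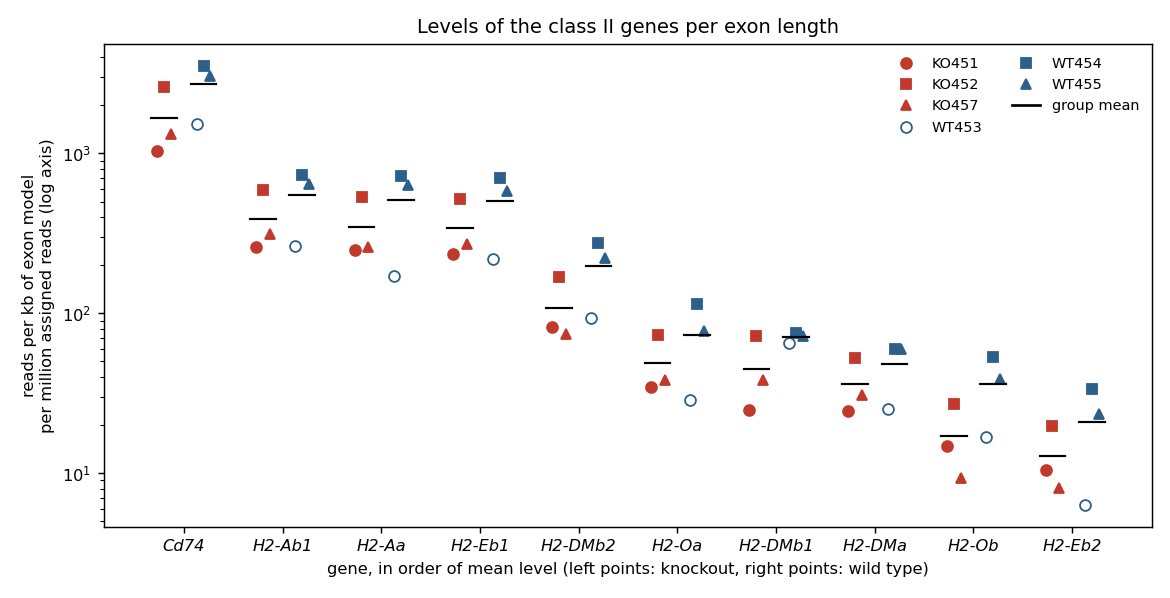
Level of each class II gene as RPKM on a log axis, with 1 point per library, knockout to the left and wild type to the right of each gene, and bars at the group means. Cd74 lies highest, at a mean of 2178 RPKM over the 6 libraries, and H2-Eb2 lowest, at 16.9 RPKM.

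H2-Aa, H2-Ab1 and H2-Eb1 encode chains of the classical class II molecules. The log2 normalized count of H2-Aa, the alpha chain of I-A, was 15.11 in KO451, 16.04 in KO452 and 15.13 in KO457, against 14.39 in WT453, 16.40 in WT454 and 16.22 in WT455. The knockout values lay between the extremes of the wild-type values. H2-Ab1, the beta chain that pairs with H2-Aa, had 14.60, 15.63 and 14.83 in KO451, KO452 and KO457, against 14.45, 15.85 and 15.68 in WT453, WT454 and WT455. H2-Eb1, the beta chain of I-E, had 14.04, 15.03 and 14.23 in the same knockout libraries, against 13.78, 15.39 and 15.14 in the same wild-type libraries. In all 3 genes WT453 was the lowest and WT454 the highest of the 6 libraries. The log2 fold change, knockout minus wild type, was -0.24 ± 0.56 (SE) for H2-Aa, -0.31 ± 0.44 for H2-Ab1 and -0.34 ± 0.47 for H2-Eb1, with adjusted p of 0.908, 0.831 and 0.820 (limma, Benjamini-Hochberg over 22081 genes). The 95% interval for H2-Ab1 ran from -1.34 to 0.73, which covers a fold from 0.396 to 1.65.

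The annotated partner of H2-Eb1, the alpha chain gene of I-E, is a pseudogene in the GENCODE annotation, H2-Ea-ps. It had 2 reads in KO457 and 0 reads in the other 5 libraries. With 0 reads, levels of up to 0.0781 to 0.0978 CPM are allowed (CPM, reads scaled to library depth), counting error alone considered. H2-Eb1 had a level per length close to those of H2-Aa and H2-Ab1 in the same libraries. H2-Eb2, a less studied relative of H2-Eb1, had a log2 normalized count of 10.35 in KO451, 11.13 in KO452 and 9.96 in KO457, against 9.48 in WT453, 11.80 in WT454 and 11.30 in WT455. WT453 was again the lowest library, and the log2 fold change was -0.38 ± 0.61 (SE, limma adjusted p = 0.854).

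Cd74, the invariant chain gene, lies on chromosome 18 at 60803848 to 60812652, plus strand, and had a log2 normalized count of 15.98 in KO451, 17.16 in KO452 and 16.30 in KO457, against 16.37 in WT453, 17.50 in WT454 and 17.32 in WT455. Here KO451 and KO457 were the lowest libraries and WT453 lay just above them. The log2 fold change was -0.58 ± 0.42 (SE), with a limma adjusted p of 0.634 and a 95% interval from -1.58 to 0.41. Quantile normalization of the log2 values moved it to -1.08, without a call.

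H2-DM is a pair of H2-DMa with a beta chain from either H2-DMb1 or H2-DMb2. H2-DMa had a log2 normalized count of 11.62, 12.55 and 11.91 in KO451, KO452 and KO457, against 11.50, 12.66 and 12.67 in WT453, WT454 and WT455. H2-DMb2 had 12.37, 13.27 and 12.20 in the knockout libraries, against 12.41, 13.89 and 13.59 in the wild-type libraries, named in the same order as for H2-DMa. H2-DMb1 differed from the other genes of the group in its wild-type values. It had 10.59, 11.97 and 11.19 in the knockout libraries, against 11.82, 11.95 and 11.92 in WT453, WT454 and WT455. WT453 thus lay 0.11 below the mean of the other 2 wild-type libraries in H2-DMb1, and between 1.03 and 2.07 below it in each of the other 9 genes. KO452 had the highest H2-DMb1 value of the 6 libraries, so that the groups overlapped here too. The log2 fold changes were -0.25 ± 0.39 (SE) for H2-DMa, -0.65 ± 0.34 for H2-DMb1 and -0.68 ± 0.45 for H2-DMb2, with limma adjusted p of 0.848, 0.524 and 0.590.

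Reads of the 2 beta chains are hard to keep apart. Of the 50-base windows in H2-DMb1 transcripts, 22.7% also occur in a transcript of H2-DMb2, and 25.9% of the windows of H2-DMb2 occur in another gene. How reads that fit both genes were counted is not given in the sources used here, so the split between H2-DMb1 and H2-DMb2 is uncertain. Without a stated strand setting the same holds for H2-DMa, whose exons overlap those of Brd2 on the other strand by 360 bases, and for H2-Oa, which overlaps the antisense gene BC051537 by 321 bases. H2-Ab1, H2-Eb1, H2-Eb2, H2-Ob and Cd74 shared no such window with another gene.

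H2-O is the pair of H2-Oa and H2-Ob, known mainly from B cells. H2-Oa had a log2 normalized count of 10.83 in KO451, 11.75 in KO452 and 10.93 in KO457, against 10.38 in WT453, 12.30 in WT454 and 11.77 in WT455. H2-Ob had 11.52, 12.25 and 10.83 in KO451, KO452 and KO457, against 11.56, 13.13 and 12.71 in WT453, WT454 and WT455. KO457 and KO451 were the lowest libraries in H2-Ob, whereas in H2-Oa the lowest was WT453. The log2 fold change was -0.31 ± 0.50 (SE) for H2-Oa (limma adjusted p = 0.854) and -0.93 ± 0.49 for H2-Ob (limma adjusted p = 0.524). H2-Ob had the lowest fold, 0.524 of the wild-type level with a 95% interval from 0.236 to 1.16.

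**Figure D2:**
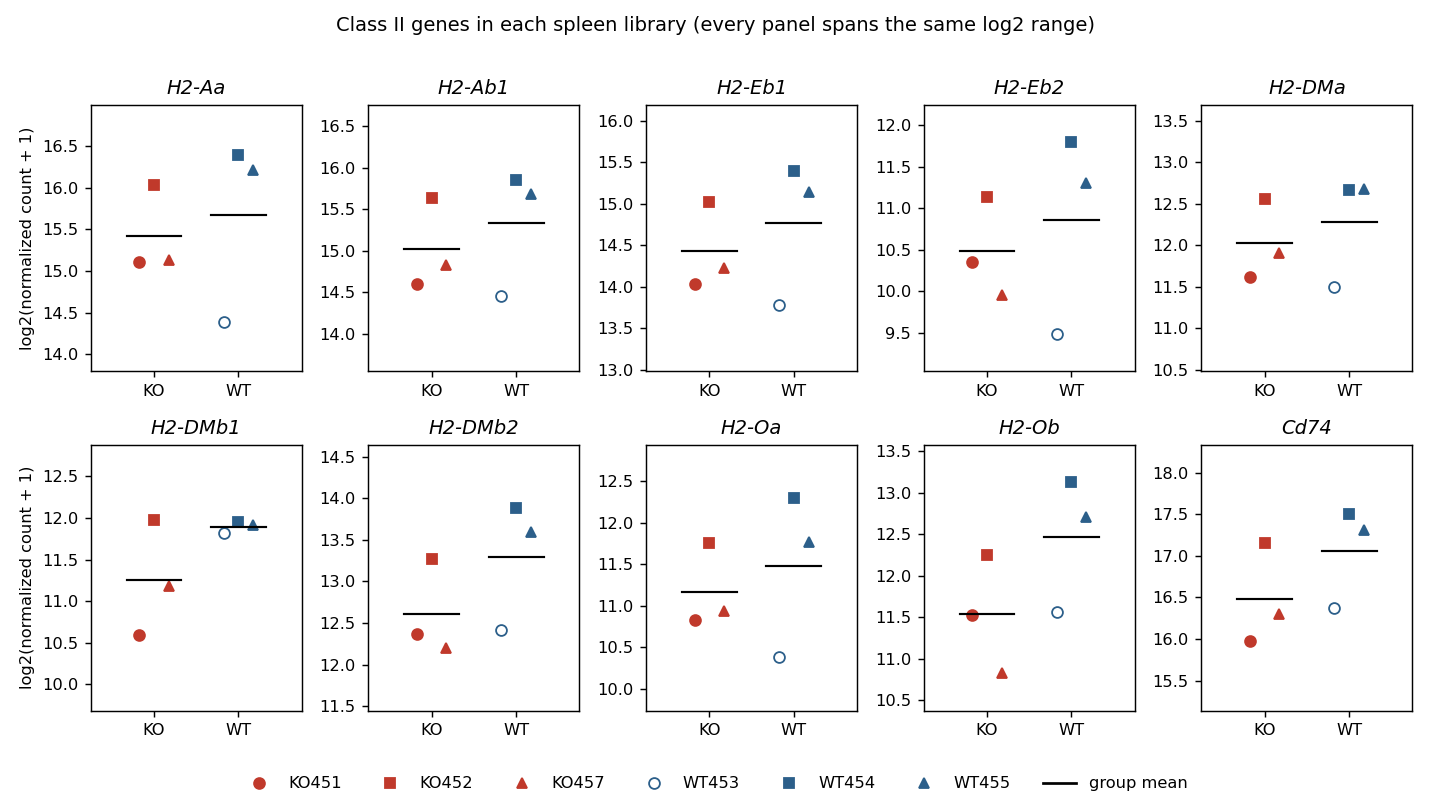
Deposited log2(normalized count + 1) of the 10 class II genes, 1 point per library, with the knockout libraries to the left of the wild-type libraries and bars at the group means. The open circle is WT453, which is the lowest of the 6 libraries in 6 genes, and KO452 is the highest knockout library in all 10.

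Across the group, all 10 genes had a log2 fold change below 0, where 52.3% of all genes tested did, and their median was -0.36 against -0.033 over all genes. The genes moved together from library to library, so the 10 directions are not independent. None of the 10 was called by limma at an adjusted p under 0.05, where 0.00906% of all genes were, and none had an unadjusted p under 0.05, where 11% of all genes did. Voom called 0 of the 10, and the authors' deposited table lists 0 of the 10 at an FDR under 0.05, where it lists 3.58% of its genes. The lowest FDR of the group in the authors' deposited table is 0.263, for H2-Ob. The authors' comparison, whose test the sources used here do not name, gives H2-Ob an unadjusted p of 0.0280. The groups overlapped in all 10 genes; over all genes they did not overlap in 19.5%, of which those lower in knockout libraries made up 9.93% of all genes. The 95% intervals of all 10 log2 fold changes included 0.

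Leaving out WT453 changed this picture in size but not in the calls. Without it all 10 genes were again below 0, where 50.7% of all genes were, with a median of -0.87 against -0.0099 over all genes. All 3 knockout values then lay below both wild-type values in 9 of the 10 genes, H2-DMb1 being the exception, where 21.2% of all genes showed this. WT453 was the lowest wild-type library in all 10 genes, and counts without it were chosen after seeing the data. Leaving out WT453 therefore favours lower knockout values, and as the genes moved together the 9 are not independent. H2-DMb2 (-1.13 ± 0.37 SE) and H2-Ob (-1.38 ± 0.46 SE) had unadjusted p of 0.0344 and 0.0360 (limma). Thus 2 of 10 were lower at an unadjusted p under 0.05, where 9.67% of all genes were. With adjustment over all genes, p ranged from 0.250 to 0.430 (limma) and 0 of 10 were called. In the other direction, the log2 fold change of H2-Aa was 0.12 without WT454 and 0.031 without WT455. Without WT454 that of H2-Eb2 was 0.091 and that of H2-Oa 0.095.

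**Figure D3:**
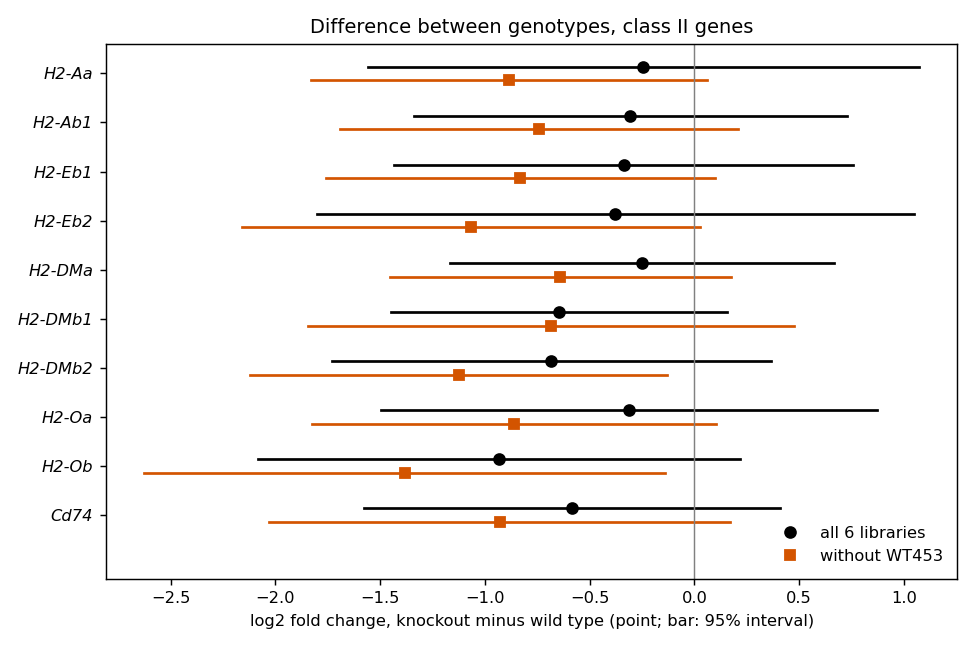
Log2 fold change, knockout minus wild type, of each class II gene with its 95% interval from limma, for all 6 libraries (black circles) and without WT453 (orange squares). The points lie below 0 for all 10 genes in both fits, and without WT453 the intervals of H2-DMb2 and H2-Ob exclude 0.

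Pairs of class II genes were also compared within each library, where a scaling factor common to the library cancels. Of 8 pairs compared, 2 did not overlap between the groups. Over single genes, which are no background for pairs, 19.5% did not overlap. The log2 difference between Cd74 and H2-Ab1 was 1.38 in KO451, 1.52 in KO452 and 1.47 in KO457, against 1.92 in WT453, 1.65 in WT454 and 1.63 in WT455. All 3 knockout values lay below the wild-type values, and the means differed by -0.28. Quantile normalization, which is not a common factor, gave log2 fold changes of -1.08 for Cd74 and -0.45 for H2-Ab1, against -0.58 and -0.31 on the deposited scale, and so a wider gap between these genes. The log2 difference between H2-Oa and H2-Ob was -0.70 in KO451, -0.50 in KO452 and 0.11 in KO457, against -1.18 in WT453, -0.83 in WT454 and -0.94 in WT455. All 3 knockout values lay above the wild-type values, and the means differed by 0.62. KO457 stood apart from the other knockout libraries here, and without it the difference was 0.38. Each gave p = 0.1 in an exact two-sided permutation test, the smallest that 3 against 3 allows, and an adjusted p of 0.4 over the 8 pairs, so neither passed. Without WT453 the mean differences were -0.19 for Cd74 against H2-Ab1 and 0.52 for H2-Oa against H2-Ob.

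In the other 6 pairs the groups overlapped. The log2 difference between H2-Aa and H2-Ab1, the chains of I-A, averaged 0.40 ± 0.10 in knockout and 0.34 ± 0.35 in wild-type libraries (SD, n = 3 each). WT453 alone had less H2-Aa than H2-Ab1 by this measure, at -0.064, against 0.55 in WT454 and 0.54 in WT455. H2-Eb1 and H2-Ab1 kept the steadiest ratio, at -0.59 ± 0.024 in knockout and -0.56 ± 0.11 in wild-type libraries (SD, n = 3 each). WT453 also stood apart in H2-DMa against H2-DMb1, at -0.32, where the 3 knockout libraries had 0.58 to 1.03 and the other wild-type libraries 0.71 and 0.76.

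**Figure D4:**
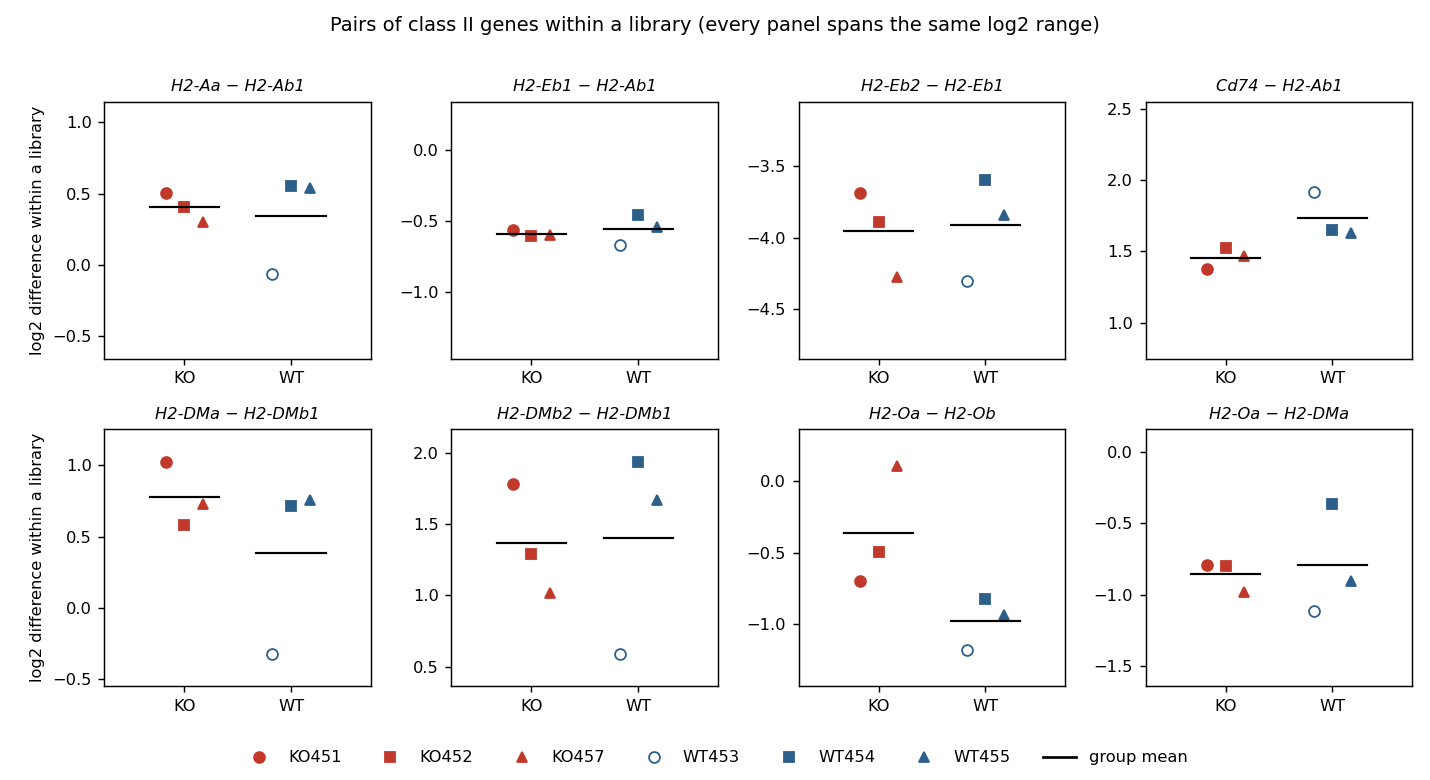
Log2 difference between 2 class II genes within each library for 8 pairs, knockout libraries to the left, wild-type libraries to the right, and bars at the group means. The groups do not overlap in Cd74 against H2-Ab1 and in H2-Oa against H2-Ob, and the open circle, WT453, lies apart in H2-Aa against H2-Ab1 and in H2-DMa against H2-DMb1.

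The level of the class II genes went along with that of B cell markers from library to library. The mean of the 10 genes, set against its mean over the 6 libraries on the log2 scale, was -0.58 in KO451, 0.40 in KO452 and -0.53 in KO457, against -0.66 in WT453, 0.81 in WT454 and 0.55 in WT455. The mean of the 12 B cell markers was -0.65, 0.22 and -0.54 in the knockout libraries, against -0.64, 0.97 and 0.64 in the wild-type libraries, named as above. The 2 means differed by at most 0.18 in any library. Summed, the B cell markers took 1623 to 3393 CPM in knockout and 2014 to 5766 in wild-type libraries. Of the 12 B cell markers 11 were below 0, with a median log2 fold change of -0.74, 2 had an unadjusted p under 0.05 and 0 were called by limma. Over all genes 11% had such a p in either direction. Without WT453, 12 of 12 were below 0, with a median of -1.11 and again 0 calls. Of these, 11 were at an unadjusted p under 0.05, where 9.67% of all genes were lower and 18.2% differed in either direction. The means of the 9 T cell markers, which mark cells that in mice do not carry class II molecules, had the same 3 high and 3 low libraries, with -0.62, 0.13 and -0.42 in KO451, KO452 and KO457, against -0.59, 0.83 and 0.68 in WT453, WT454 and WT455. Of the 9, all were below 0 with all libraries and without WT453, with 0 calls in both. With all libraries 1 had an unadjusted p under 0.05 (limma), where 11% of all genes did in either direction. Without WT453 9 did, where 9.67% of all genes were lower at that p. The T cell markers summed to 494 to 969 CPM in knockout and 611 to 1626 CPM in wild-type libraries. The 7 neutrophil markers ran otherwise, at -0.051, -0.69 and 1.55 in KO451, KO452 and KO457, against 2.24, -2.13 and -0.92 in WT453, WT454 and WT455, and were lowest in WT454, where most class II genes were highest. The groups did not overlap in any of the 10 erythroid markers, where 19.5% of all genes did not overlap. The means of these markers were 2.58, 0.63 and 0.99 in the same knockout libraries, against -2.27, -1.35 and -0.57 in the same wild-type libraries. The part of any of these 4 cell types in the class II levels was not tested.

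The 10 markers of conventional dendritic cells, which prime T cells, had 5 genes below and 5 above 0, and their median was -0.043. Of the 10, 0 were called by limma, with 1 at an unadjusted p under 0.05, where 11% of all genes were. Without WT453 6 were below and 4 above 0, with a median of -0.086. Their summed level was 160 to 265 CPM in knockout and 236 to 313 in wild-type libraries. Some genes of this list followed markers of other cells. Ffar2 was highest in WT453 and KO457, as the neutrophil markers were. Dpp4 was highest in WT454 and WT455 and lowest in KO451, as the B cell and T cell markers were. Ffar2 and Dpp4 were named after their values were seen, and the part of other cells in this list was not tested. The 5 markers of plasmacytoid dendritic cells had 2 below and 3 above 0, a median of 0.34, 0 calls, and a summed level of 25.4 to 51.6 CPM in knockout and 18.0 to 72.3 in wild-type libraries. Without WT453, 4 were below and 1 above 0, with a median of -0.50. All 10 red pulp macrophage markers were above 0, with a median of 1.24 and 0 calls, and all 10 again without WT453, with a median of 0.72. With all libraries 6 were higher at an unadjusted p under 0.05 (limma), where 5.5% of all genes were. The red pulp macrophage markers summed to 5655 to 9753 CPM in knockout and 1602 to 5691 in wild-type libraries. None of the markers in these 3 lists was at 0 reads in any library.

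**Figure D5:**
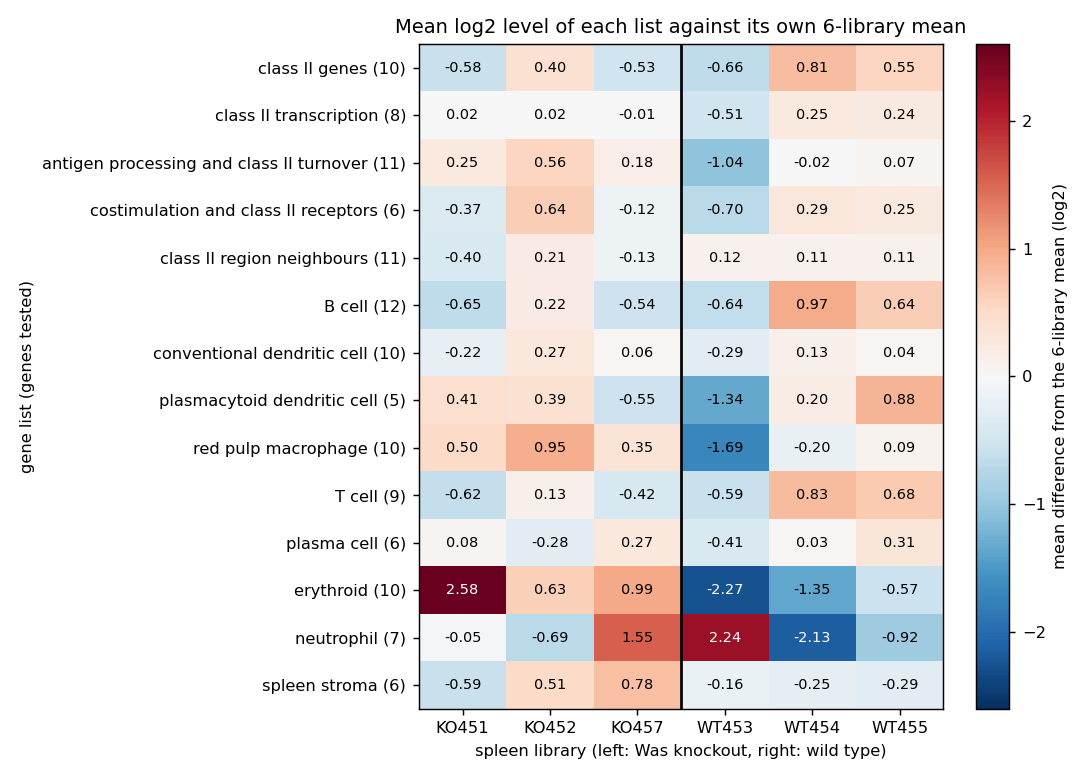
Mean log2 level of each gene list in each library, as the difference from the list's own mean over the 6 libraries, with the knockout libraries left of the line and the wild-type libraries right of it. The rows of class II genes, B cells and T cells share their high and low libraries, whereas erythroid markers are above 0 in all 3 knockout libraries and below 0 in all 3 wild-type libraries.

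The 5 genes whose pattern over the 6 libraries was most like the mean of the class II genes were Pxdc1, Cd79a, Rnase6, Sbk1 and Gbp9. They were taken from 10614 genes with a mean normalized count of at least 100. Pearson's r over the 6 libraries was 0.999 for Pxdc1, 0.998 for Cd79a and 0.997 for the other 3, given as a description, since with so many genes and 6 libraries values near 1 are found at the top of any such list. Cd79a, a signalling chain of the B cell receptor, had a log2 normalized count of 13.88, 14.88 and 13.98 in KO451, KO452 and KO457, against 13.85, 15.41 and 15.08 in WT453, WT454 and WT455. Its log2 fold change was -0.53 ± 0.46 (SE; limma adjusted p = 0.705).

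Genes that control class II transcription gave no call. Of 8 genes, among them the RFX subunits that bind the X box and the NF-Y subunits that bind the Y box, 5 were below and 3 above 0, their median being -0.16, with 0 at an adjusted and 0 at an unadjusted p under 0.05 (limma). The groups did not overlap in 2 of the 8, where 19.5% of all genes did not. These were Rfxank and Nfya, lower in knockout libraries and highest in WT453, and named after their values were seen. Without WT453, 6 were below and 2 above 0, with a median of -0.24. Then 1 had an unadjusted p under 0.05 (limma), where 18.2% of all genes did. Ciita, the coactivator that sets class II transcription, had a log2 normalized count of 11.43 in KO451, 12.31 in KO452 and 11.60 in KO457, against 10.63 in WT453, 12.93 in WT454 and 12.60 in WT455. These are the same high and low libraries as in H2-Aa. The log2 fold change of Ciita was -0.28 ± 0.59 (SE; limma adjusted p = 0.901), and it was -0.99 without WT453 and 0.16 without WT454. Creb1, a factor that binds the X2 element, had 11.88, 11.64 and 11.70 in KO451, KO452 and KO457, against 7.72, 12.09 and 11.95 in WT453, WT454 and WT455. Its log2 fold change was 1.16 ± 1.08 (SE; limma adjusted p = 0.722) with WT453 and -0.28 without it.

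Proteases and other genes of antigen processing and class II turnover ran the other way. All 11 genes of that list had a log2 fold change above 0, their median being 0.39, and 0 passed the adjusted test (limma). At an unadjusted p under 0.05, 4 of the 11 were higher, where 5.5% of all genes were. Cathepsin B, encoded by Ctsb, had a log2 normalized count of 16.15, 16.65 and 16.22 in KO451, KO452 and KO457, against 14.75, 15.54 and 15.73 in WT453, WT454 and WT455. Every knockout value lay above every wild-type value. The log2 fold change was 1.0 ± 0.32 (SE) for Ctsb and 0.87 ± 0.26 for Ctsd, which encodes cathepsin D, with limma adjusted p of 0.358 and 0.355. Ctss, cathepsin S, which cuts the invariant chain in B cells and dendritic cells, had a log2 fold change of 0.10 ± 0.35 (limma adjusted p = 0.947). All 10 red pulp macrophage markers were above 0 as well, as given above. Their groups did not overlap in 6 of the 10, where 19.5% of all genes did not. The part of red pulp macrophages in this list was not tested. Without WT453 the list had a median of 0.11, with 7 genes above and 4 below 0.

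Among the ubiquitin ligases in that list, March1 removes class II molecules from the surface of B cells and dendritic cells. It had a log2 normalized count of 11.49, 11.51 and 11.12 in KO451, KO452 and KO457, against 9.82, 12.20 and 11.84 in WT453, WT454 and WT455. Its log2 fold change was 0.085 ± 0.58 (SE; limma adjusted p = 0.977) with all libraries and -0.65 without WT453. March8, a close relative, had 12.76, 11.29 and 11.47 in the knockout libraries, against 8.07, 9.35 and 10.26 in the wild-type libraries, and its groups did not overlap. The log2 fold change of March8 was 2.61 ± 0.61 (SE; limma adjusted p = 0.344). The 10 erythroid markers were likewise all above 0, with a median of 2.90, and ranged in sum over 26730 to 78139 CPM in knockout and 2317 to 12041 CPM in wild-type libraries, and the part of red cell precursors in the March8 value was not tested. Ctss, March1 and March8 were chosen after their values were seen.

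Costimulatory molecules and receptors of class II showed no common direction. Of 6 genes, 3 were below and 3 above 0, their median being 0.023. By limma 0 passed, with 1 at an unadjusted p under 0.05, where 11% of all genes were. Cd4, the T cell coreceptor that binds class II molecules, had a log2 normalized count of 11.36, 12.05 and 11.28 in KO451, KO452 and KO457, against 10.90, 12.15 and 12.05 in WT453, WT454 and WT455, and a log2 fold change of -0.14 ± 0.38 (SE; limma adjusted p = 0.931). Cd86, a costimulatory ligand on antigen-presenting cells, had 11.66, 12.30 and 11.63 in the knockout libraries, against 9.89, 11.53 and 11.56 in the wild-type libraries. The groups of Cd86 did not overlap, and its log2 fold change was 0.87 ± 0.47 (SE; limma adjusted p = 0.532), or 0.32 without WT453.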

How the data were processed

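RNA-seq of mouse spleen was analysed in 6 libraries, 3 knockout and 3 wild type, grouped by their titles. The authors deposited 1 table of log2 values per gene and library, with their own log2 fold change, p-value and FDR. Tested on the values, each equals log2(n + 1), where n is the library's reads on that gene over its size factor, and reads recovered this way were whole within 0.001 for 100% of counts up to 500. GRCm38, STAR 2.5.3a, StringTie 1.3.1c, FastQC 0.11.5 and DESeq stand, without roles, in the submitters' processing notes. The sources used here give no counting step, annotation or strand setting.

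The deposited values were compared with limma 3.58.1 (R 4.3.3) with an intensity trend, 2 groups and no covariate, for 22081 genes with a mean normalized count of at least 1, and Benjamini-Hochberg adjustment with a threshold of 0.05. The fit was tested on simulated counts with a fixed spread and log2 changes larger than those of the class II genes. That test does not show how often changes of their size would be called. Pairs of genes were compared by two-sided exact permutation tests (SciPy 1.17.1). Positions and exon lengths came from GENCODE M21, which held 26404 of the 26452 identifiers, and promoters from RefSeq. Library depth was 30661759 to 38402758 reads, at which 0 reads allow up to 0.0781 to 0.0978 CPM (3 reads). The alternatives were a pseudocount of 0.1, no filter or one at 1 CPM, quantile normalization, other size factors, voom with and without quality weights, a threshold of 0.01 and each library left out.

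The 10 genes, the other lists and the tests were chosen with earlier results of these data known. The text names all 10 genes; of each other pathway list, genes past the threshold or, with none, the 2 with the highest mean; and the 5 genes most like the group. Names outside this rule are marked.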

Additional observations from a re-analysis of the deposited data

How the results depend on the processing

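No setting called any of the 10 genes. All 10 kept a log2 fold change below 0 under the 7 settings that keep all libraries, with H2-Ob between -1.38 and -0.93 and H2-Aa between -0.81 and -0.24, the lower ends in voom with quality weights. The number of genes called over the whole table was 2, and it was 1 with voom, 4 with voom and quality weights, 0 at a threshold of 0.01 and 0 to 2 with 1 library left out. The targeted gene Was, at a log2 fold change of -3.66 with all libraries, had adjusted p of 0.0447 to 0.351 (limma) with 1 library left out. The lack of calls in those fits therefore says little about the class II genes. With 1 library left out, the log2 fold change ranged from -0.88 to 0.12 for H2-Aa, -1.07 to 0.091 for H2-Eb2, -0.86 to 0.095 for H2-Oa, -0.74 to -0.046 for H2-Ab1, -0.83 to -0.028 for H2-Eb1, -0.64 to -0.046 for H2-DMa, -1.01 to -0.32 for H2-DMb1, -1.13 to -0.39 for H2-DMb2, -1.38 to -0.58 for H2-Ob, -0.93 to -0.33 for Cd74, -0.99 to 0.16 for Ciita, -0.28 to 1.91 for Creb1, -0.53 to 0.087 for Cd4 and -0.35 to 0.078 for Psmb8. Creb1 was at -0.11 in voom with quality weights. The pair differences ranged from -0.14 to 0.17 for H2-Aa with H2-Ab1, -0.088 to 0.018 for H2-Eb1 with H2-Ab1, -0.24 to 0.12 for H2-Eb2 with H2-Eb1, -0.44 to 0.23 for H2-DMb2 with H2-DMb1 and -0.22 to 0.15 for H2-Oa with H2-DMa, whereas Cd74 with H2-Ab1 (-0.33 to -0.19), H2-Oa with H2-Ob (0.38 to 0.79) and H2-DMa with H2-DMb1 (0.044 to 0.58) kept their direction. The causes were not tested. Chosen after seeing the data, the counts without WT453 were 2 genes at an unadjusted p under 0.05 and 9 genes without overlap, against 0 and 0 with all libraries. The difference in the share of reads, -0.35 percentage points, ranged from -0.60 to -0.18 with 1 library left out. No paired analysis was possible because the groups share no replicate number.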

Other observations

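Among genes that lie beside the class II genes on chromosome 17 without belonging to them, 11 were tested. With all libraries 7 were below and 4 above 0, their median being -0.23. By limma 0 passed, with 1 at an unadjusted p under 0.05, where 11% of all genes were. Without WT453, 10 were below and 1 above 0, with a median of -0.24, 0 passing and 0 at an unadjusted p under 0.05 (limma). H2-K1, a class I heavy chain, had a log2 fold change of -0.46 ± 0.30 (SE; limma adjusted p = 0.593), and Psmb8, a subunit of the immunoproteasome, one of -0.18 ± 0.26 (limma adjusted p = 0.825). In WT453, which was low in most class II genes, the mean of this list lay 0.12 above its mean over the 6 libraries on the log2 scale, against 0.11 in WT454 and 0.11 in WT455. Single genes of the list went both ways. WT453 minus the mean of the other wild-type libraries was 1.31 in Slc39a7 and 0.61 in Tap2. The same difference was -1.06 in Rxrb, -0.97 in Brd2 and -0.62 in H2-K1. Slc39a7, Tap2 and Rxrb were chosen after their values were seen. Brd2, whose exons overlap those of H2-DMa, had a log2 fold change of 0.019 ± 0.30 (SE; limma adjusted p = 0.991), and was chosen for that overlap. Icosl, a costimulatory ligand made by B cells, had the lowest log2 fold change among the costimulatory genes, -0.97 ± 0.40 (SE; limma adjusted p = 0.443), and was chosen after its values were seen.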
